A study of Drosophila melanogaster with 36 samples.

Results

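The genes described here are the odorant receptors (Or), gustatory receptors (Gr) and ionotropic receptors (Ir) of Drosophila melanogaster, the membrane proteins with which fly sensory neurons detect smells, tastes, carbon dioxide, humidity and temperature. They were taken as every gene on the array whose current symbol is Orco or begins with Or, Gr or Ir and a digit. This gave 121 of 10851 genes: 52 Or genes, 28 Gr genes and 41 Ir genes. The study compared whole adult flies of 3 strains on 36 two-colour cDNA arrays. Antp73b flies carry an allele of the Hox gene Antennapedia, known for turning antennae into legs. ap56f flies carry an allele of apterous, a selector gene of the dorsal wing. OregonR flies are a common wild-type strain. All flies were bought from 1 supplier. Their sex and age, and whether arrays share an RNA extract, were not given in the sources used here. Hence p-values set a difference against the scatter between arrays, and that scatter may be technical.

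Each array gave 1 ratio per spot between its Cy3 channel (channel 1) and its Cy5 channel (channel 2). There were 9 ordered pairs of strains with 4 arrays each: 24 arrays compared 2 strains, with each pair hybridised in both orientations, and 12 carried the same strain in both channels and are called self-hybridised. Which channel a positive ratio favours was not stated in the labels. Values below are therefore log2 ratios coded as channel 1 over channel 2, and a fitted difference lies on the plus or the minus side of that coding; if the deposited ratios run the other way, every side turns. A difference is called where limma's adjusted p over all 13345 rows of the array was under 0.05. The smallest step of the deposited ratios next to a ratio of 1 is 0.14 on the log2 scale.

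Most Or proteins work as channels formed by 1 tuning receptor and the shared co-receptor Orco, in neurons of the antenna, the maxillary palp or the larval dorsal organ. Gr proteins detect sugars and bitter compounds in taste hairs, and a pair of them detects carbon dioxide in the antenna. Ir proteins descend from ionotropic glutamate receptors, act with the co-receptors Ir25a, Ir8a or Ir76b, and serve smell in the coeloconic hairs of the antenna and taste elsewhere. Each receptor is used by few neurons, so in RNA of whole flies these genes are a small part of the sample. A difference between whole flies cannot tell fewer neurons of a type from less RNA per neuron.

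Among these receptors, Ir75d, an ionotropic receptor of coeloconic antennal neurons, had the largest fitted difference: 0.62 on the log2 scale (SE 0.0627, 1.54-fold) for Antp73b over OregonR and 0.56 (1.47-fold) for Antp73b over ap56f. Ir7c, a taste receptor of the labellum known for its part in sensing high salt, followed on the minus side, at -0.42 for Antp73b over OregonR and -0.30 for ap56f over OregonR. Or63a, a larval odorant receptor, lay on the plus side for ap56f over OregonR, at 0.34. Of the 92 receptor genes that could be tested, 14 (15.2%) were called in at least 1 of the 3 comparisons, against 33.1% of all 13345 rows. They were 6 Or genes, 2 Gr genes and 6 Ir genes. The other called differences were between 0.11 and 0.27 in size, and each lost its call under at least 1 alternative setting.

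Coverage limited what could be seen. A value was often missing for these genes: 29 of the 121 (24%) had a value on fewer than 2 of the 4 arrays in at least 1 group and were not tested, against 3.22% of the 10730 other genes. The untested share was 30.8% of Or genes, 14.3% of Gr genes and 22% of Ir genes. A value on all 36 arrays was present for 43% of the receptor genes and 85.4% of the other genes. By group, arrays with OregonR in both channels had the lowest share of receptor genes with a value, 72.3%, and 1 of those 4 arrays, array 40, had 62 of 121. Arrays with Antp73b in both channels had 82.6%, and those with ap56f in both channels 83.7%. The 2 spots printed for each element correlated across receptor elements with a median r of 0.338 per array (-0.0812 to 0.709), against 0.579 across all elements; these correlations are over elements of 1 array, which share the slide and the labelling. What made a value missing was not given in the sources used here.

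**Figure D1:**
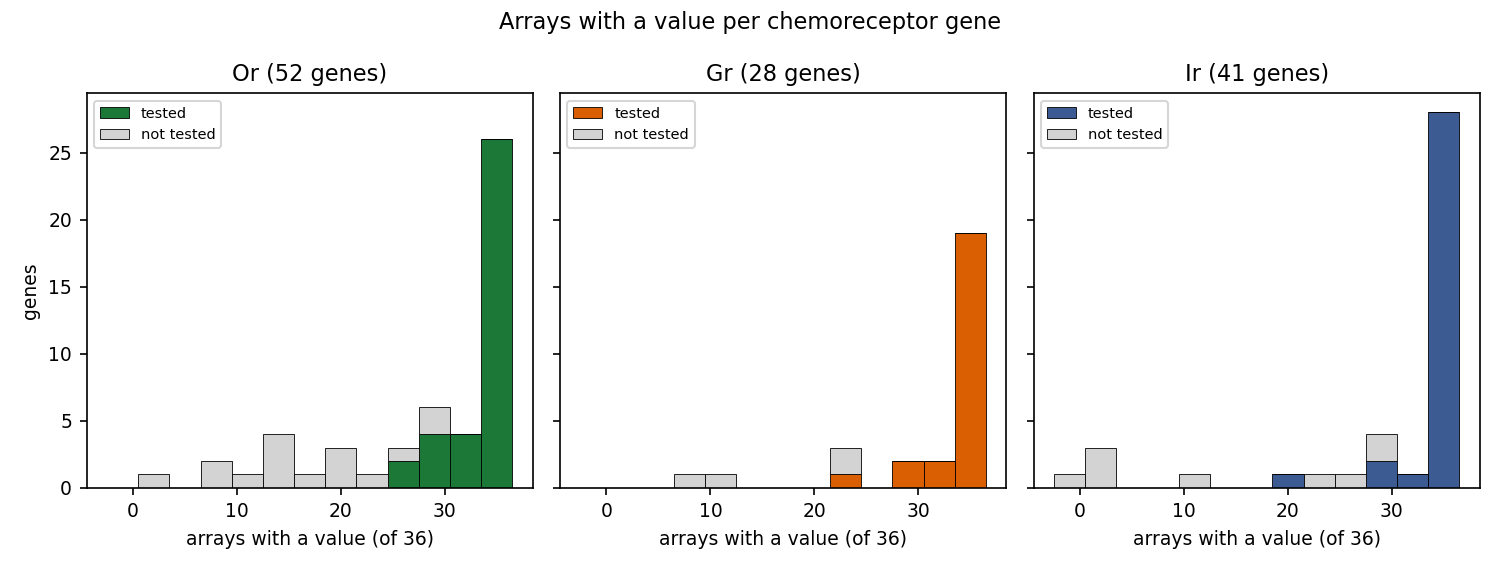
Number of the 36 arrays on which each receptor gene had a value (horizontal axis), as the number of genes (vertical axis), for the Or, Gr and Ir families. Coloured bars are genes tested and grey bars genes not tested; the 29 untested genes had a value on 0 to 29 arrays.

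The untested genes include receptors that are well known. Orco, the co-receptor of the odorant receptors, had a value on 19 arrays, between -0.26 and 0.74 with a median of 0.07. Those arrays were 9 of the 20 that carry Antp73b, 11 of the 20 that carry ap56f and 11 of the 20 that carry OregonR. Gr33a, a bitter receptor broadly used in bitter neurons, had a value on 9 arrays, and Ir48c on none. The other 26 were Gr8a, Gr36c, Gr47a, Ir21a, Ir41a, Ir47a, Ir52d, Ir68a, Ir75a, Ir92a, Ir94h, Or22a, Or22b, Or33a, Or33b, Or42a, Or47b, Or56a, Or67b, Or67c, Or83c, Or85c, Or85f, Or92a, Or94a and Or94b. With no filter on missing values, 24 of the 29 could be fitted, among 13906 rows, and 4 were called in 1 comparison each. These were Or22b for Antp73b over OregonR (0.37, adjusted p = 0.037), Gr8a and Ir75a for ap56f over OregonR (0.37 and -0.26, adjusted p = 0.011 and 0.0026) and Ir47a for Antp73b over ap56f (-0.41, adjusted p = 0.015). In the order of those comparisons, 1, 2 and 1 of the 24 genes were called, against 3120, 2108 and 2084 of the 13906 rows. Orco differed by 0.10, 0.11 and -0.01 in the 3 comparisons (adjusted p from 0.56 to 0.98). A further 66 of the 187 family genes in the RefSeq gene table were not measured as a gene of their own here.

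For Antp73b over OregonR, 8 of 92 receptor genes (8.7%) were called, 5 plus and 3 minus, against 23.2% of all rows (11.7% plus, 11.5% minus). For ap56f over OregonR, 9 of 92 (9.78%) were called, 6 plus and 3 minus, against 15.9% of all rows (8.45% plus, 7.45% minus). For Antp73b over ap56f, 5 of 92 (5.43%) were called, 2 plus and 3 minus, against 15.6% of all rows (8.29% plus, 7.36% minus). The 3 comparisons share arrays. Of the 14 called genes, 7 were called in 1 comparison, 6 in 2 and 1, Or63a, in all 3. At an unadjusted p under 0.05 there were 18, 20 and 10 receptor genes (19.6%, 21.7% and 10.9%), against 33.5%, 28.7% and 27.1% of all rows. The share called was below that of all rows in each comparison; this difference was not tested.

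The typical receptor difference was small. The median fitted difference of the 92 genes was 0.01, 0.03 and -0.005 for Antp73b over OregonR, ap56f over OregonR and Antp73b over ap56f, against 0.002, -0.002 and 0 for all rows. Its median size without sign was 0.058, 0.072 and 0.05, against 0.077, 0.071 and 0.068 for all rows. The median standard error was 0.062 for receptor genes and 0.056 for all rows, so receptors were measured slightly less precisely. A difference of at least 1.2-fold was fitted for 2 receptor genes in each comparison (2.17%), against 8.21%, 4.87% and 5.16% of all rows. None reached 2-fold.

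**Figure D2:**
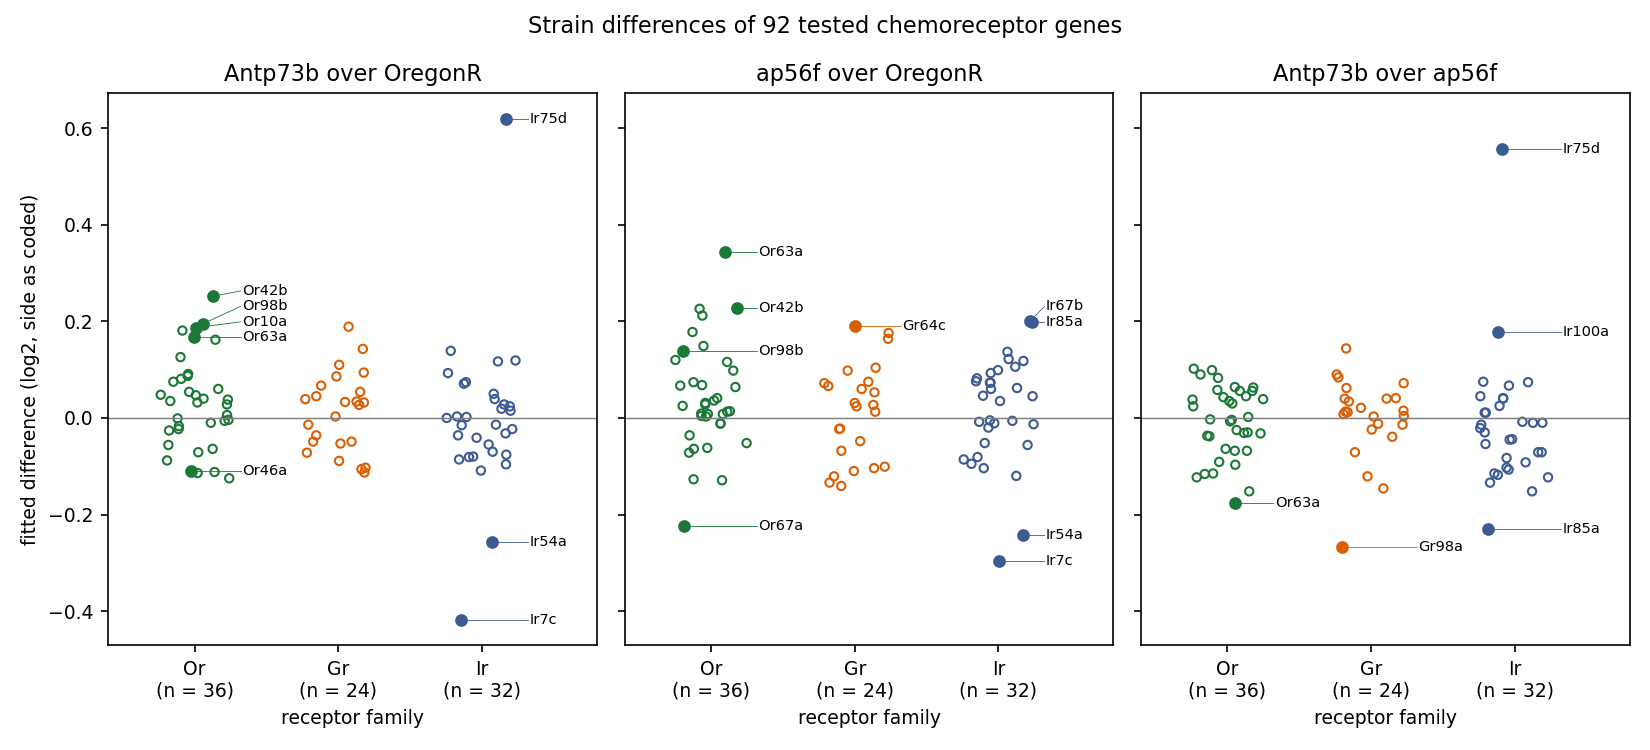
Fitted log2 difference (vertical axis, side as coded) of each of the 92 tested receptor genes by family, for Antp73b over OregonR, ap56f over OregonR and Antp73b over ap56f. Filled, named points passed an adjusted p of 0.05 and open points did not; Ir75d at 0.62 and 0.56 and Ir7c at -0.42 lie outside the other points of their panels.

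The co-receptors of the ionotropic receptors had values on all 36 arrays. Ir25a, the co-receptor used most widely among ionotropic receptors, differed by 0.12 for Antp73b over OregonR (95% interval 0.01 to 0.23, adjusted p = 0.13) and by 0.11 for ap56f over OregonR (-0.01 to 0.22, adjusted p = 0.20). Ir8a, which pairs with acid-sensing receptors, differed by -0.08 (-0.19 to 0.03) and -0.12 (-0.23 to -0.01), and Ir76b, which serves amine and salt taste, by 0.05 (-0.06 to 0.16) and 0.12 (0.01 to 0.23). None of the 3 was called in any comparison. The ends of these intervals stay within 0.23 on the log2 scale of 0, in either direction. The 3 differed by 0.01, 0.04 and -0.07 for Antp73b over ap56f.

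Of the odorant receptors, 22 known mainly from the adult antenna were tested. For Antp73b over OregonR 3 were called, all plus (median 0.04, against 0.002 for all rows), and for ap56f over OregonR 2 plus and 1 minus (median 0.04). Of all rows, 11.7% were called plus and 11.5% minus in the first comparison, and 8.45% and 7.45% in the second. For Antp73b over ap56f 0 of the 22 were called, against 15.6% of all rows. The fitted differences of the 22 ran from -0.15 to 0.10, and 1 had an unadjusted p under 0.05 in limma. Of 5 tested receptors of the maxillary palp, 1 was called in 1 comparison, and of 9 tested larval receptors only Or63a was called. Of all rows, 33.1% were called in at least 1 comparison.

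Or42b, which responds to vinegar-like esters in the antenna, was called on the plus side in both mutants over OregonR. Its 4 arrays with Antp73b in channel 1 and OregonR in channel 2 gave -0.27, 0.00, 0.14 and 0.20, and with the channels turned -0.79, -0.59, -0.56 and -0.32. The 2 orientations did not overlap, and all 12 self-hybridised arrays were negative as well (-0.73 to -0.20), a range that held 3 of the 4 arrays with Antp73b in channel 2. The fitted difference was 0.25 (SE 0.069, adjusted p = 0.0051), and from the second spot alone 0.24 (adjusted p = 0.15). For ap56f over OregonR the arrays with ap56f in channel 1 gave -0.07, -0.07, 0.00 and 0.47, and those with it in channel 2 gave -0.59, -0.38, -0.19 and 0.00. Here the orientations overlapped. The fitted difference was 0.23 (adjusted p = 0.017), and without array 69, which gave 0.47, it was 0.17 (adjusted p = 0.079).

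Or98b, an odorant receptor of the antenna, was also called in both mutants. The arrays with Antp73b in channel 1 and OregonR in channel 2 gave -0.04, 0.02, 0.14 and 0.14, and with the channels turned -0.49, -0.36, -0.34 and -0.26. The orientations did not overlap, and the self-hybridised arrays ran from -0.27 to 0.23. The fitted difference was 0.20 (adjusted p = 0.0014). Or98b has 2 elements on the array, and they disagreed: 1 gave 0.36 (adjusted p = 6.5e-06) and the other 0.03 (adjusted p = 0.75). For ap56f over OregonR the arrays gave 0.07, 0.07, 0.09 and 0.35 with ap56f in channel 1, and -0.27, -0.13, -0.09 and 0.09 with it in channel 2. That difference, 0.14 (adjusted p = 0.036), lost its call without any of the arrays 52, 57, 60, 61, 66, 67, 68 or 69, with an adjusted p of up to 0.11.

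Or10a, which responds to aromatic esters such as methyl salicylate, had a value on 29 arrays. With Antp73b in channel 1 and OregonR in channel 2 it gave 0.00, 0.14, 0.20 and 0.26, and with the channels turned 3 arrays gave -0.50, -0.32 and -0.06. The orientations did not overlap. The difference was 0.19 (adjusted p = 0.012) and was not called without array 53 (0.15, adjusted p = 0.051). For ap56f over OregonR it was 0.15 (adjusted p = 0.076).

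Or67a, another antennal receptor, lay on the minus side. With ap56f in channel 1 and OregonR in channel 2 its arrays gave -0.70, -0.42, -0.38 and -0.24, and with the channels turned 3 arrays gave 0.00, 0.00 and 0.07. All arrays of the first orientation lay below those of the other. The difference for ap56f over OregonR was -0.22 (adjusted p = 0.024), and -0.18 without array 69 (adjusted p = 0.083). Or67d, the receptor of the male pheromone cis-vaccenyl acetate, was not called, at 0.04 for Antp73b over OregonR and 0.07 for ap56f over OregonR.

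Or46a, a receptor of the maxillary palp, gave -0.44 to -0.15 with Antp73b in channel 1 and OregonR in channel 2, and -0.21 to 0.02 with the channels turned. The ranges overlapped. Its difference, -0.11 for Antp73b over OregonR (adjusted p = 0.039), is the mean of 2 elements that disagreed, 1 at -0.22 (adjusted p = 0.00026) and the other at 0.00 (adjusted p = 0.99). It lost its call without any of the arrays 50, 51, 53, 55, 62, 64, 65, 66, 68 or 72 (adjusted p up to 0.11).

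Or63a, whose protein works in the larval nose, was the odorant receptor with the largest difference, and these were adult flies. With ap56f in channel 1 and OregonR in channel 2 its arrays gave 0.01, 0.19, 0.31 and 0.38, and with the channels turned -0.57, -0.43, -0.19 and 0.00. All 4 arrays of the first orientation lay above all 4 of the other, but the nearest, 0.01 and 0.00, were closer than the smallest step of 0.14. The self-hybridised arrays spread as widely, from -0.63 to 0.29. The difference for ap56f over OregonR was 0.34 (SE 0.0622, adjusted p = 4.5e-05, 1.27-fold); within even-numbered arrays alone it was 0.23 (adjusted p = 0.078). With Antp73b in channel 1 and OregonR in channel 2 the arrays gave -0.07, 0.06, 0.14 and 0.26, and with the channels turned -0.58, -0.54, -0.37 and -0.13. That difference was 0.17 (adjusted p = 0.045). For Antp73b over ap56f it was -0.18 (adjusted p = 0.045), from -0.60, -0.38, -0.20 and -0.01 with Antp73b in channel 1 and -0.07, 0.26, 0.27 and 0.44 with it in channel 2. The differences that involve Antp73b are at the edge of the threshold: each lost its call when any of 13 single arrays was left out (adjusted p up to 0.13), the first without 50, 52, 53, 55, 57, 58, 60, 62, 63, 64, 67, 69 or 71, and the second without 51, 55, 57, 58, 59, 61, 64, 65, 67, 69, 70, 72 or 73.

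**Figure D3:**
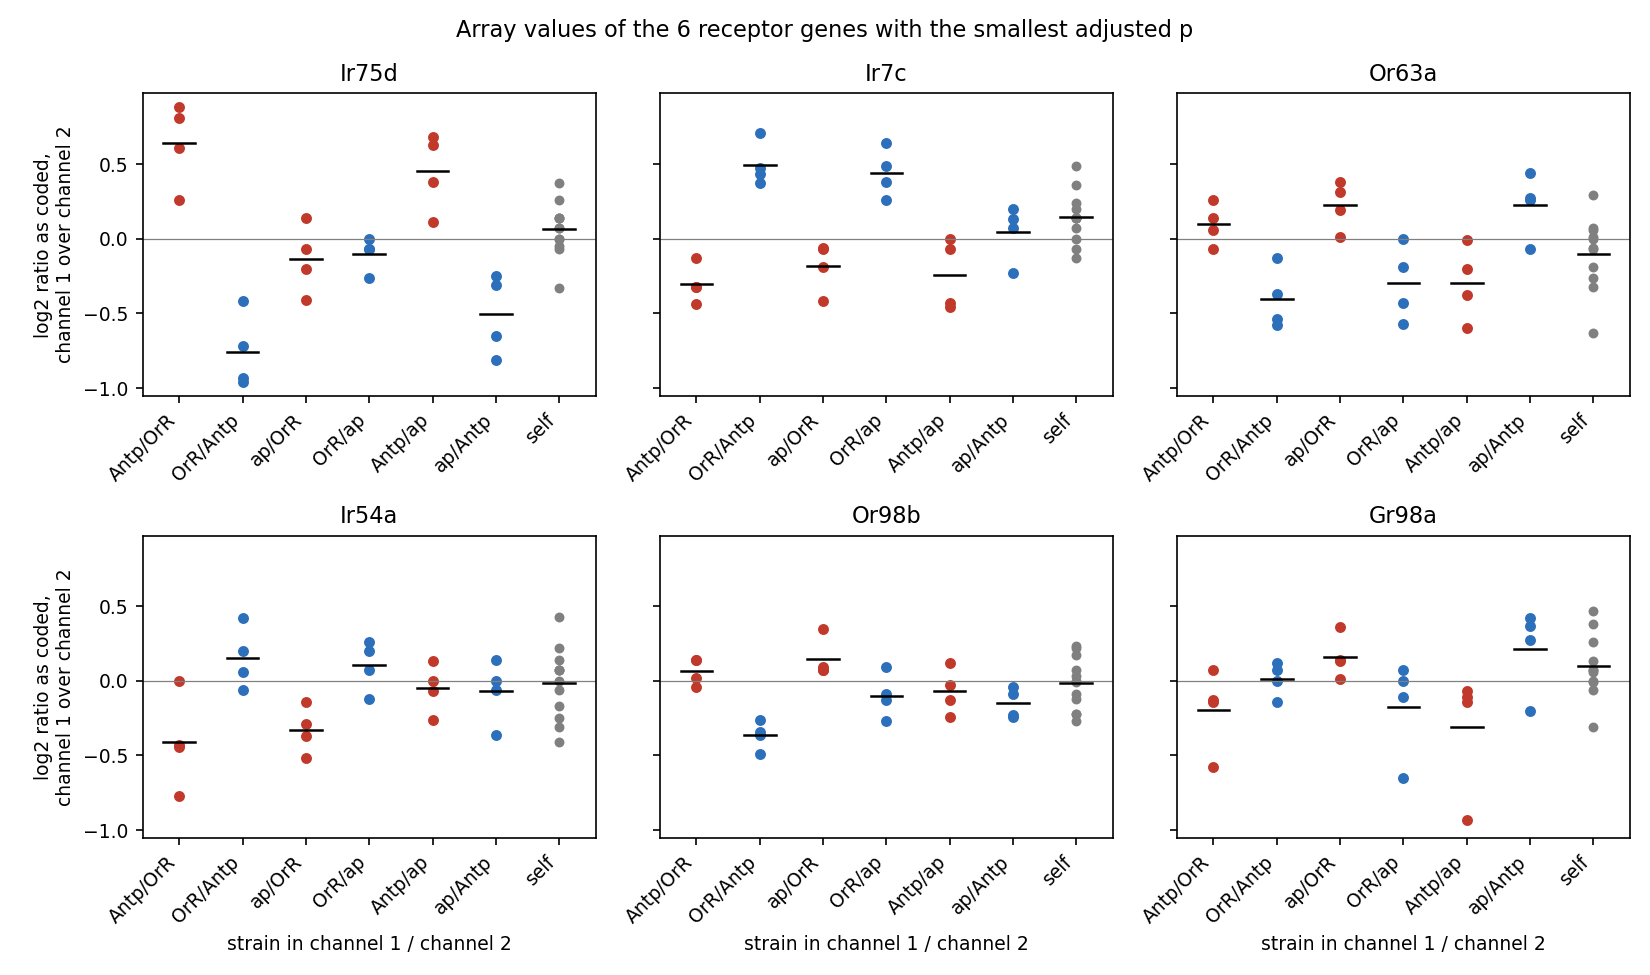
Log2 ratio of single arrays (vertical axis, channel 1 over channel 2 as coded) for the 6 receptor genes with the smallest adjusted p, 1 panel a gene, by strain in channel 1 / channel 2 (Antp, Antp73b; ap, ap56f; OrR, OregonR; self, same strain in both); each point is 1 array and each line a mean. For Ir75d the 4 arrays with Antp73b in channel 1 and OregonR in channel 2 lie between 0.26 and 0.88, and the 4 with the channels turned between -0.96 and -0.42.

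Among gustatory receptors 2 genes were called, each in 1 comparison. Of 24 tested Gr genes, 0 were called for Antp73b over OregonR by limma (3 plus and 2 minus at an unadjusted p under 0.05), 1 for ap56f over OregonR (Gr64c) and 1 for Antp73b over ap56f (Gr98a). Of all rows, 23.2%, 15.9% and 15.6% were called in these 3 comparisons. For Antp73b over OregonR 33.5% of all rows had an unadjusted p under 0.05. Of the 5 tested sugar receptors Gr64c alone was called, where 33.1% of all rows were called in at least 1 comparison. The sugar receptors Gr5a, a trehalose receptor, Gr43a, a fructose receptor of the brain and taste organs, and Gr64f, a co-receptor of most sweet neurons, were not called. Gr5a differed by -0.11 for both mutants over OregonR (95% intervals -0.20 to -0.01 and -0.20 to -0.02; adjusted p = 0.087 and 0.094). Gr43a differed by 0.03 for Antp73b over OregonR and 0.10 for ap56f over OregonR, and Gr64f by 0.05 and 0.01.

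Gr64c, a member of the sugar receptor cluster, gave -0.07, -0.07, 0.00 and 0.07 with ap56f in channel 1 and OregonR in channel 2, and -0.89, -0.75, -0.38 and -0.14 with the channels turned. The orientations did not overlap, and the range of the self-hybridised arrays, -0.58 to 0.07, held all 4 arrays of the first orientation and 2 of the 4 of the other. The difference was 0.19 (adjusted p = 0.036) and lost its call without any of the arrays 56, 57, 60, 61, 66, 67, 68 or 69 (adjusted p up to 0.13). Its annotation overlaps that of Gr64b.

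Gr98a was called for Antp73b over ap56f. Its arrays with Antp73b in channel 1 and ap56f in channel 2 gave -0.93, -0.14, -0.11 and -0.07, and with the channels turned -0.20, 0.27, 0.37 and 0.42. The orientations overlapped, and 1 array, at -0.93, lay far below the others of its group. The difference was -0.27 (SE 0.0685, adjusted p = 0.004); the 8 direct values, turned and corrected for the dye, averaged -0.26 ± 0.33 (SD, n = 8), with 7 of 8 on the minus side. For the mutants over OregonR it was -0.10 for Antp73b and 0.16 for ap56f (adjusted p = 0.31 and 0.098).

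The carbon dioxide receptors Gr21a and Gr63a, which work as a pair in 1 class of antennal neurons, were both tested and not called. Gr21a differed by -0.05 for Antp73b over OregonR (95% interval -0.18 to 0.08) and -0.07 for ap56f over OregonR (-0.20 to 0.06). Gr63a differed by 0.03 (-0.13 to 0.19) and 0.07 (-0.09 to 0.23). Of 9 tested bitter receptors, limma called 0 in any comparison (2 plus for Antp73b over OregonR and 0 in the others at an unadjusted p under 0.05), with fitted differences between -0.10 and 0.19. Of all rows, 33.1% were called in at least 1 comparison. At an unadjusted p under 0.05 the shares of all rows were 33.5%, 28.7% and 27.1%. Gr66a, a marker of bitter neurons, differed by -0.04 for Antp73b over OregonR (-0.12 to 0.05) and -0.02 for ap56f over OregonR (-0.11 to 0.06). Its 2 elements were both uncalled.

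The ionotropic receptors held the largest differences in 2 of the 3 comparisons. For Ir75d, the 4 arrays with Antp73b in channel 1 and OregonR in channel 2 gave 0.26, 0.61, 0.81 and 0.88, and the 4 with the channels turned gave -0.96, -0.93, -0.72 and -0.42. The 4 arrays with Antp73b in channel 1 and ap56f in channel 2 gave 0.11, 0.38, 0.63 and 0.68, and the 4 turned ones -0.81, -0.65, -0.31 and -0.25. In both comparisons all 4 arrays of 1 orientation were positive and all 4 of the other negative. The 12 self-hybridised arrays gave -0.33 to 0.37, and overlapped the direct arrays nearest to 0. Turned and corrected for the dye, the 8 direct values averaged 0.70 ± 0.25 for Antp73b over OregonR and 0.48 ± 0.25 for Antp73b over ap56f (SD, n = 8 each), all 16 on the plus side.

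The fitted differences of Ir75d were 0.62 for Antp73b over OregonR (95% interval 0.49 to 0.75, adjusted p = 3.6e-11) and 0.56 for Antp73b over ap56f (0.43 to 0.68, adjusted p = 1.1e-09). The arrays with ap56f in channel 1 and OregonR in channel 2 gave -0.41, -0.20, -0.07 and 0.14, and with the channels turned -0.26, -0.07, -0.07 and 0.00. These overlapped, and the difference was 0.06 (-0.06 to 0.19, adjusted p = 0.55). With either spot alone Antp73b over OregonR gave 0.64 and 0.60, and within the first 2 and the last 2 arrays of each group 0.60 and 0.64. Ir75c, of the same subfamily, differed by -0.02 and -0.01 for Antp73b and ap56f over OregonR, and Ir75a was not tested. Of the 7 tested ionotropic receptors known from the antenna, Ir75d alone was called, where 33.1% of all rows were called in at least 1 comparison. The annotation of Ir75d overlaps that of Prp6, a splicing factor, and COX6AL2, a subunit of cytochrome oxidase. Prp6 lay on the other side for Antp73b over OregonR (-0.21, adjusted p = 0.0015) and COX6AL2 was at 0.02 (adjusted p = 0.79). Whether the printed element is specific to Ir75d was not tested.

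For Ir7c, the arrays with Antp73b in channel 1 and OregonR in channel 2 gave -0.44, -0.32, -0.32 and -0.13, and with the channels turned 0.37, 0.43, 0.47 and 0.71. Those with ap56f in channel 1 and OregonR in channel 2 gave -0.42, -0.19, -0.07 and -0.06, and turned 0.26, 0.38, 0.49 and 0.64. The orientations did not overlap in either comparison. The self-hybridised arrays ran from -0.13 to 0.49 and overlapped direct arrays of both comparisons. Their range held the turned values 0.37, 0.43 and 0.47 with Antp73b and 0.26 and 0.38 with ap56f. It also held -0.07 and -0.06 with ap56f in channel 1. Turned and corrected for the dye, the 8 direct values averaged -0.40 ± 0.13 for Antp73b over OregonR and -0.31 ± 0.16 for ap56f over OregonR (SD, n = 8 each), all 16 on the minus side. The fitted differences were -0.42 (95% interval -0.53 to -0.31, adjusted p = 4.2e-08) and -0.30 (-0.41 to -0.18, adjusted p = 7.4e-05). Between the mutants, Antp73b over ap56f was -0.12 (-0.23 to -0.01, adjusted p = 0.13), from arrays that overlapped.

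Among tested genes, Ir7c lies next to dec, an egg shell gene of the ovary, in the gene order of the RefSeq table. dec differed by -0.93, -0.60 and -0.34 for Antp73b over OregonR, ap56f over OregonR and Antp73b over ap56f, all called. In each comparison all 9 tested egg shell genes were called minus, with medians of -0.89, -0.55 and -0.34 and ranges of -1.17 to -0.61, -0.80 to -0.33 and -0.48 to -0.25. Of all rows, 11.5%, 7.45% and 7.36% were called minus. Ir7g, the nearest tested gene on the other side, differed by -0.10 (adjusted p = 0.23) for Antp73b over OregonR, and the cluster members Ir7a and Ir7b by 0.07 and 0.02. The part of the egg shell shift and of the neighbour in the values of Ir7c was not tested.

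Ir54a lay on the minus side in both mutants. With Antp73b in channel 1 and OregonR in channel 2 it gave -0.77, -0.44, -0.43 and 0.00, and with the channels turned -0.06, 0.06, 0.20 and 0.42. With ap56f in channel 1 and OregonR in channel 2 it gave -0.52, -0.37, -0.29 and -0.14, and with the channels turned -0.12, 0.07, 0.20 and 0.26. In the first comparison the orientations overlapped. In the second they did not, with -0.14 and -0.12 as the nearest values. The differences were -0.26 (adjusted p = 0.00095) and -0.24 (adjusted p = 0.003), and from the second spot alone -0.20 (adjusted p = 0.065) and -0.21 (adjusted p = 0.083). The annotation of Ir54a overlaps that of sub, a kinesin-like protein of the female meiotic spindle, which was called on the same side for Antp73b over OregonR (-0.23, adjusted p = 0.001). The part of sub in the values of Ir54a was not tested.

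Ir85a and Ir67b, both of the divergent ionotropic receptors, were called on the plus side for ap56f over OregonR. Ir85a gave -0.05, -0.01, 0.27 and 0.32 with ap56f in channel 1 and OregonR in channel 2, and -0.53, -0.37, -0.07 and -0.07 with the channels turned; the difference was 0.20 (adjusted p = 0.016). With Antp73b in channel 1 and ap56f in channel 2 it gave -0.76, -0.64, -0.32 and 0.00, and turned -0.05, 0.00, 0.06 and 0.13; that difference was -0.23 (adjusted p = 0.0043). For the first comparison the orientations did not overlap, with -0.05 and -0.07 as the nearest values, and for the second they did. Antp73b over OregonR was -0.03 (adjusted p = 0.76). Ir67b gave -0.56, -0.21, -0.13 and 0.07 with ap56f in channel 1 and OregonR in channel 2, and -1.03, -0.95, -0.53 and -0.31 with the channels turned, and these overlapped. Its self-hybridised arrays were all negative (-0.66 to -0.07), and its difference of 0.20 (adjusted p = 0.027) lost its call without any of the arrays 56, 57 or 67 (adjusted p up to 0.096).

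Ir100a gave -0.37 to 0.13 with Antp73b in channel 1 and ap56f in channel 2 and -0.73 to -0.01 with the channels turned. The difference of 0.18 (adjusted p = 0.041) lost its call without any of 14 single arrays: 50, 52, 53, 54, 55, 56, 58, 60, 61, 62, 65, 66, 68 or 73 (adjusted p up to 0.11).

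Most receptors had an offset between the channels on the same side. The fitted dye term had a median of -0.11 over the 92 receptor genes, with 81 of 92 below 0, against -0.003 over all rows, with 6778 of 13345 below 0. The self-hybridised arrays of Or42b and Ir67b, all negative, show this offset. An offset shared by all arrays moves the 2 orientations together and is taken out by the fit. A receptor's side on a single array carries it. For Or42b the fitted dye term was -0.332, while its self-hybridised arrays averaged -0.51. Less self-hybridised arrays, Or42b for ap56f over OregonR gave 0.611 with ap56f in channel 1 and, turned, -0.205 with it in channel 2. For Antp73b over OregonR these values were 0.546 and 0.072.

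Each comparison was made in both orientations on separate arrays. The values of the 2 orientations did not overlap for 8 of 92 receptor genes (8.7%) for Antp73b and OregonR, 6 (6.52%) for ap56f and OregonR and 1 (1.09%) for Antp73b and ap56f, against 17.4%, 12.1% and 13.9% of all rows. Across 91 receptor genes, the dye-corrected mean of 1 orientation and that of the other, turned, correlated with r of 0.448 for Antp73b over OregonR, 0.115 for ap56f over OregonR and 0.211 for Antp73b over ap56f, against 0.549, 0.301 and 0.376 over all rows. Genes are not independent replicates, and the points share the arrays. Without Ir75d and Ir7c the first was 0.317.

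**Figure D4:**
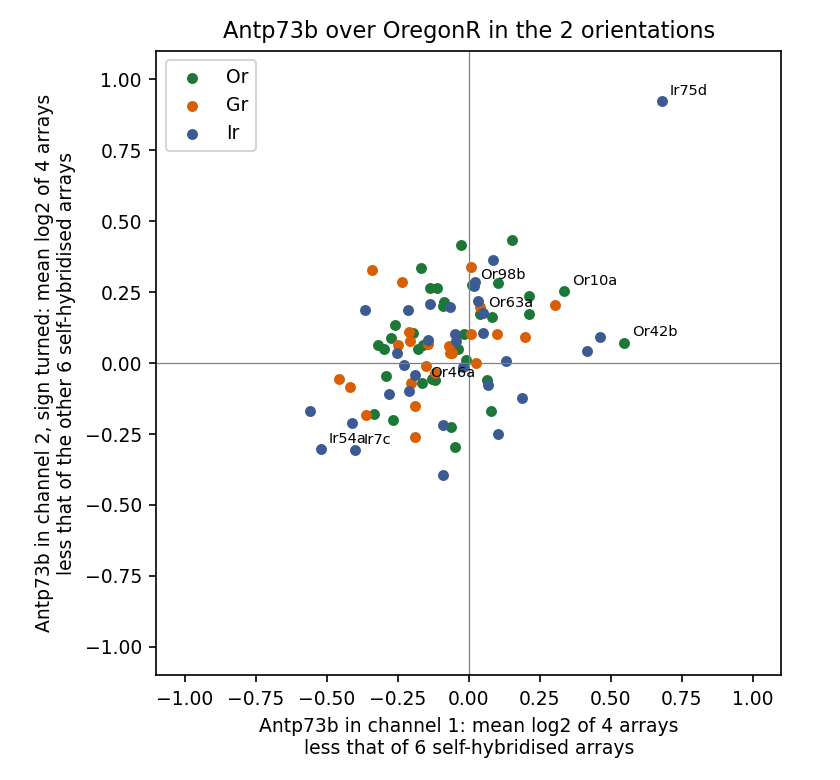
Antp73b over OregonR for 91 receptor genes as measured in each orientation: mean log2 of the 4 arrays with Antp73b in channel 1 (horizontal axis) and, with the sign turned, of the 4 with Antp73b in channel 2 (vertical axis), each less the mean of 6 separate self-hybridised arrays. Ir75d stands apart at the upper right, and most other genes lie within 0.5 of 0 on both axes without a common side.

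The spread of receptor ratios on arrays with 2 strains was set against that on self-hybridised arrays, which show what the assay gives with no strain difference. The SD across receptor genes was 0.254 ± 0.063 on the 24 two-strain arrays and 0.221 ± 0.053 on the 12 self-hybridised arrays (mean ± SD over arrays). The difference was 0.0338 (two-sided permutation test, p = 0.117). That test mixed the first 2 and the last 2 arrays of each group, whose SDs differed as given below. Over all rows the SD was 0.326 ± 0.0505 on two-strain arrays and 0.259 ± 0.0325 on self-hybridised arrays (p = 0.00034, same permutation test). By array number, the mean SD of the receptors was 0.198 on the first 2 arrays of each group and 0.288 on the last 2. Within the first 2 arrays two-strain minus self-hybridised arrays gave a difference in SD of 0.0172 (exact permutation test, p = 0.285) and within the last 2 it was 0.0504 (p = 0.0406, exact permutation test). It was 0.0366 (p = 0.0453, permutation test) over the 52 receptor genes with a value on every array.

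**Figure D5:**
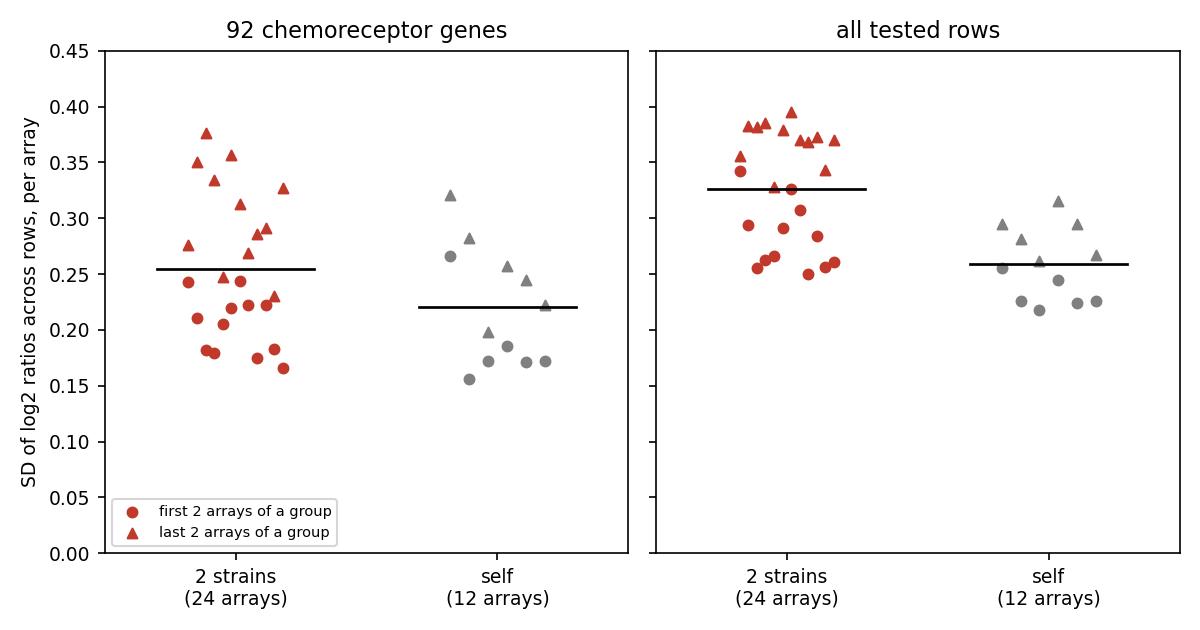
SD of log2 ratios on each array (vertical axis) across the 92 receptor genes (left) and all tested rows (right), for two-strain (red) and self-hybridised (grey) arrays; circles are the first 2 and triangles the last 2 arrays of a group, and lines are means. For receptors, two-strain arrays run from 0.166 to 0.376 and self-hybridised arrays from 0.156 to 0.321, and the groups overlap.

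Other genes of chemosensation were read beside the receptors. The proteins that carry odorants in the fluid around olfactory neurons (odorant binding proteins, with a5, a10, lush, the Snmp proteins and Amt) had 35 tested genes. Of these, 8 were called plus and 5 minus for Antp73b over OregonR, 7 and 4 for ap56f over OregonR, and 8 and 5 for Antp73b over ap56f. Of all rows, 23.2%, 15.9% and 15.6% were called on either side in these comparisons. Whether the carriers differ from all rows was not tested. Obp99c differed by 0.82 and 0.65 for Antp73b and ap56f over OregonR, and Obp99a by -0.79 for Antp73b over OregonR and -0.01 for ap56f over OregonR; many of these carriers are made outside the antenna as well. Of 12 tested taste channels and CheA or CheB proteins, 2 were called plus and 2 minus for Antp73b over OregonR. In that comparison 11.7% of all rows were called plus and 11.5% minus. CheA75a, of a family of taste-hair proteins, differed by 0.29 for Antp73b over OregonR, -0.24 for ap56f over OregonR and 0.53 for Antp73b over ap56f, all called. Of 6 tested factors of sensory neuron fate, limma called 0 in any comparison (1 minus for Antp73b over ap56f and 0 in the others at an unadjusted p under 0.05).

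Genes that mark other tissues of the fly were called as well. Of 5 tested photoreceptor genes, 4 were called plus for Antp73b over OregonR and all 5 for ap56f over OregonR. For Antp73b over ap56f 2 of them were called minus. Of 7 tested neuronal genes, brp, a protein of the presynaptic active zone, was minus in all 3 comparisons (-0.41, -0.24 and -0.17) and nSyb plus for Antp73b over OregonR (0.16). Accessory gland genes were called minus for 5 of 9 and 8 of 9 for Antp73b and ap56f over OregonR, and testis genes for 2 of 6 in each. For Antp73b over ap56f, 4 accessory gland genes and 1 testis gene were called plus. Of all rows, 11.7% were called plus and 11.5% minus for Antp73b over OregonR. These shares were 8.45% and 7.45% for ap56f over OregonR, and 8.29% and 7.36% for Antp73b over ap56f. Antp itself differed by 0.13 for Antp73b over OregonR (adjusted p = 0.11), and ap was called at 0.29 for ap56f over OregonR. The part of these other tissues in the receptor values was not tested.

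The receptor genes called in any comparison were 5 of 19 tested on chromosome arm 3L (26.3%), 4 of 18 on 3R (22.2%), 3 of 27 on 2R (11.1%), 2 of 15 on X (13.3%) and 0 of 13 on 2L. Of all tested genes with an arm in the RefSeq table, matched by name, 32.6% on 3L, 34.9% on 3R, 35% on 2R, 32.4% on X and 36.4% on 2L were called in any comparison. The receptors' share was below that of all genes on each of these arms. For the 28 nearest tested neighbours of the 14 called genes, chosen after the receptor values were seen, 4 were called on the same side in the same comparison and 4 on the other side. Of all rows, 23.2%, 15.9% and 15.6% were called on either side for Antp73b over OregonR, ap56f over OregonR and Antp73b over ap56f. Apart from dec and sub, the neighbours on the same side were Gs2 beside Or10a (0.39 for Antp73b over OregonR) and CG5402 beside Gr98a (-0.16 for Antp73b over ap56f). Besides Ir75d, Ir54a and Gr64c, the annotations of 4 called genes overlap those of other genes: Or10a that of Gr10a, Or46a those of CG12917 and an antisense RNA, Ir85a those of Pif1B and Pif1A, and Ir100a that of CG42233. Whether the printed elements are specific to the receptors was not tested.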

How the data were processed

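Poly(A)-selected mRNA of whole adult flies was labelled with Cy3 or Cy5 and hybridised to 36 arrays, per the labels. The deposited values are signed fold ratios, 1 per spot; background correction, normalization and genome build were not given in the sources used here. As these values are no plain log2 or counts, log2 ratios were computed from the deposited ratio as its sign times the log2 of its size, and centred on each array's median. The 2 spots of an element, then the elements of a gene, were averaged. Symbols came from the platform table, updated through RefSeq (Release 6), which matched all 121 receptor genes. Rows with a value on at least 2 of 4 arrays in each of 9 groups were tested: 13345 of the array's rows. Spots with a value numbered 26362 to 30716 per array. The limma 3.58.1 fit (R 4.3.3) used all 36 arrays, a dye intercept and 2 strain terms, two-sided, with Benjamini-Hochberg adjustment over all rows. The arrays' number limits the precision. Spread was tested by permutation (100000 resamples). Scripts were tested on simulated data. Alternatives covered dye term, centring, spots, missing values, blocks and left-out arrays. The receptor genes and gene lists were chosen with earlier results of these data known. Named receptors are all those called plus a fixed set of co-receptors and well-known receptors, with single-array values for the 12 with the smallest adjusted p.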

Additional observations from a re-analysis of the deposited data

Results flagged for a closer look

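In groups of 4 arrays, 1 array stood far from the other 3 for 4 of the 42 groups examined over the called genes; chance gives this for about 1 group in 20. Array 67 (ap56f in channel 1, OregonR in channel 2) gave 0.35 for Or98b, where the nearest of the others gave 0.09. Array 69 of the same group gave 0.47 for Or42b, where the nearest gave 0.00. Array 61 (Antp73b in channel 1, ap56f in channel 2) gave -0.93 for Gr98a, where the nearest gave -0.14. Array 52 (OregonR in channel 1, Antp73b in channel 2) gave -0.21 for Or46a, where the nearest gave 0.00.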

How the results depend on the processing

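The called differences of Ir75d (Antp73b over OregonR and over ap56f) and of Ir7c (both mutants over OregonR) kept their side and their call in all 17 alternatives and in all 36 fits that left out 1 array. No called difference turned to the other side. Every other call was lost under at least 1 alternative. The count of receptor genes called for Antp73b over OregonR (8 in the reported fit) was 5 without a dye term, 5 after quantile normalization, 4 from the second spot, 3 within the last 2 arrays of each group, 5 within even-numbered and 4 within odd-numbered arrays, and 5 to 11 with 1 array left out (5 without array 53). For ap56f over OregonR (9) it was 4 without a dye term, 2 from direct arrays only, 3 from the second spot, 5 within the first 2 and 5 within the last 2 arrays, 2 within even-numbered and 3 within odd-numbered arrays, and 6 to 12 with 1 array left out. For Antp73b over ap56f (5) it was 3 without a dye term, 2 from direct arrays, 2 from the first and 3 from the second spot, 3 for genes with a value on all 36 arrays, 2 within the first 2 and 3 within the last 2 arrays, 1 within even-numbered and 2 within odd-numbered arrays, and 3 to 6 with 1 array left out (3 without array 55, 58, 61, 65 or 73). Over all rows, Antp73b over OregonR (3098) gave 1805 from direct arrays, 2053 from the first spot, 1500 within the last 2, 1732 within even-numbered and 1640 within odd-numbered arrays, and 2837 to 3133 with 1 array left out. For ap56f over OregonR (2122) these were 746, 1205 (1413 from the second spot), 854, 805 and 1241, with 1239 without a dye term, 1341 within the first 2 arrays, and 1868 to 2161. For Antp73b over ap56f (2088) they were 969, 1175, 902, 976 and 1124, with 1368 without a dye term, and 1869 to 2147. Direct arrays, single spots and parts of the groups use fewer values; otherwise the cause was not tested. The agreement of orientations without Ir75d and Ir7c, added after the data were seen, was 0.317, 0.098 and 0.126. The difference in spread passed 0.05 for receptors with a value on all arrays (0.0366) and within the last 2 arrays (0.0504). Arrays could not be paired by their number, because the array numbers are not shared between groups. With the place of an array in its group as a block, 9, 11 and 5 receptor genes were called, and with odd or even array number as a block 8, 9 and 5.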
